A study of Mus musculus with 2 samples.

Results

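Type 1 innate lymphoid cells (ILC1) of the liver are tissue-resident lymphocytes that carry the natural killer (NK) receptors NKp46 and NK1.1 but no rearranged antigen receptor. They were taken here from single-cell libraries of liver non-parenchymal cells, the cells left when hepatocytes are removed. The cells were selected on raw UMI values of marker genes. A barcode with 200 or more genes and no more than 20% mitochondrial UMIs was counted as an ILC1 when it held at least 2 UMIs of Ncr1 and Klrb1c together (the genes of NKp46 and NK1.1) and at least 2 UMIs of Cxcr6, Il7r and Cd200r1 together. It also had to hold 0 UMIs of the NK genes Eomes, Klra8 and Klra4, 0 UMIs of Cd3d, Cd3e and Cd3g, at most 1 UMI of the B cell genes Cd79a, Cd79b and Ms4a1, and at most 5 UMIs of the macrophage genes C1qa, C1qb and C1qc. These limits gave 350 ILC1 among 24655 barcodes, of which 24093 passed the filters on genes and mitochondrial UMIs and are called kept cells below. The ILC1 were 217 in the wild-type library and 133 in the knockout library.

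The mice were Mfap2+/+, called wild type, or Mfap2-/-, called knockout, and livers were taken from all of them after intraperitoneal injections of carbon tetrachloride, a hepatotoxin that scars the liver, for 8 weeks. Mfap2 encodes microfibril-associated glycoprotein-1, a protein of extracellular microfibrils. There was 1 library (10x Chromium 3' v3) per genotype, and no untreated mice were sequenced among the samples used here; the number, sex and age of the animals behind each library are not given in the labels. No difference between genotypes has a replicate check, so no test was made: every interval below is a 95% counting interval (exact Poisson for levels in CPM, the UMIs of a gene per 1000000 UMIs, Clopper-Pearson for shares, exact conditional for ratios) and covers counting error only.

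ILC1 belong to the first line of defence in the liver. In mice they sit in the sinusoids, are held there by adhesion molecules and by the chemokine receptor CXCR6, and answer interleukin-12, interleukin-15 and interleukin-18 with interferon gamma and with chemokines that call in other leukocytes. They are told apart from conventional NK cells by CD49a (Itga1), TRAIL (Tnfsf10), the interleukin-7 receptor and CD200R1, and by the absence of EOMES and of most Ly49 receptors, while both cell types need the transcription factor T-bet (Tbx21).

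The libraries held 11783 (wild type) and 12872 (knockout) barcodes with 82499307 and 118226367 UMIs, and the median kept cell held 4932.5 and 6587 UMIs. Mfap2 itself had 257 UMIs in 150 cells of the wild-type library and 4 UMIs in 4 cells of the knockout library; the ILC1 held 2 and 0 of them, so the targeted gene cannot be read in these cells. Of all barcodes 40 occurred in both libraries, and no barcode was an ILC1 in both. The ILC1 held 1571117 and 1105129 UMIs in all. Their median depth was 6795 UMIs (range 2267 to 20529) for wild-type and 7641 (range 1766 to 19946) for knockout cells, with 2388 and 2670 genes and 2.51% and 2.14% mitochondrial UMIs in the median cell.

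The genes that chose the cells were unevenly spread over them, and their values are given as a description only. Ncr1 was at 313 CPM in wild-type and 261 CPM in knockout ILC1, and Klrb1c at 409 and 270 CPM. Il7r was at 300 and 339 CPM and had a UMI in 78.8% and 81.2% of the cells, Cxcr6 was at 161 and 192 CPM with a UMI in 60.4% and 69.9%, and Cd200r1 was at 174 and 221 CPM with a UMI in 62.2% and 66.9%. All 3 of these genes were seen together in 49 of the 217 wild-type and 45 of the 133 knockout ILC1, while 46 and 21 cells passed on only 1 of them. The 881 and 1332 B cells of the libraries, used for comparison below, were chosen with 0 UMIs of Ncr1 and Klrb1c.

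Near the limits the choice is one of degree. In the wild type 47 cells had exactly 2 UMIs of Cxcr6, Il7r and Cd200r1 and entered, and 78 cells with 1 such UMI stayed out; in the knockout these were 21 and 22. Itga1, which the limits did not use, was at 102 CPM in the wild-type cells just inside and at 105 CPM in those just outside, and at 102 and 44.1 CPM in the knockout. The limit on C1q transcripts kept out 83 wild-type and 86 knockout cells with 6 to 20 such UMIs, at median depths of 8471 and 10875 UMIs, and these cells held Itga1 at 127 and 105 CPM. A further 25 wild-type and 23 knockout cells stayed out for 1 Cd3 UMI.

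Markers that the rule did not use were present as well. Itga1 was at 94.2 CPM (79.6 to 111) in wild-type ILC1 and 97.7 CPM (80.2 to 118) in knockout ILC1, and had a UMI in 37.3% and 42.1% of the cells. In B cells, whose median depth was 3561 and 4846 UMIs, Itga1 had a UMI in 5.79% and 7.06%; with each cell thinned to 1000 UMIs the shares were 8.29% and 10.5% in ILC1 and 1.82% and 1.65% in B cells. Tnfsf10, the gene of the death ligand TRAIL, was at 77.7 and 98.6 CPM and had a UMI in 41.5% and 47.4% of ILC1 against 0.681% and 2.48% of B cells. Thinned, these shares were 5.53% and 11.3% against 0.341% and 0.301%. Tbx21 had a UMI in 77.4% and 80.5% of ILC1 and in 3.06% and 5.26% of B cells. Zfp683 (Hobit), a transcription factor of liver ILC1, was barely seen, with 11 UMIs in wild-type ILC1 and 8 in knockout ILC1.

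Cytokine transcripts typical of the other innate lymphoid cells were at or close to 0, with the exception of Areg. The type 2 cytokines Il5 and Il13 and the type 3 cytokine Il22 had 0 UMIs in the ILC1 of both libraries, which allows up to 1.91 CPM for the wild type and 2.71 CPM for the knockout. Il1rl1, the interleukin-33 receptor of type 2 cells, had 2 and 1. Areg, a product of type 2 cells, had 82 and 106 UMIs (52.2 and 95.9 CPM), Gata3 was at 82.7 and 64.2 CPM, and Il23r, a receptor of type 3 cells, had 6 and 15 UMIs.

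T cell receptor transcripts were present as well. At least 1 UMI of the beta chain constant genes Trbc1 and Trbc2, near-identical copies whose reads cannot be safely divided, was in 211 of 217 wild-type (97.2%) and 117 of 133 knockout (88.0%) ILC1. The share was 79.6% and 73.1% in NK cells and 8.85% and 8.78% in B cells, which were also chosen without Cd3 UMIs. Trac, the constant gene of the alpha chain, had 16 and 6 UMIs in the ILC1 (10.2 and 5.43 CPM), and Cd4 had 2 and 0. The beta chain transcripts therefore came without the alpha chain in most cells, and Cd3 transcripts were kept out by the rule. In the cells that stayed out for 2 or more Cd3 UMIs, 38 wild-type and 21 knockout cells, Trac was at 149 and 95.4 CPM. These cells held Itga1 at 152 and 161 CPM, above the ILC1, and Tbx21 at 356 and 296 CPM, against 337 and 452 CPM in ILC1. Il2rb was lower, at 549 and 532 CPM against 825 and 886 CPM, and so was Xcl1, at 1023 and 708 CPM against 1558 and 985 CPM. Itga1 and Tbx21 thus do not set ILC1 apart from these Cd3-positive cells.

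ILC1 were a smaller part of the knockout library. They made up 1.91% (1.67 to 2.18) of kept wild-type cells and 1.05% (0.876 to 1.24) of kept knockout cells, a log2 ratio of −0.87 (−1.19 to −0.55) or 1.83-fold. NK cells, taken with the same limits but at least 2 UMIs of Eomes, Klra8 and Klra4 and no condition on Cxcr6, Il7r and Cd200r1, were 49 of the wild-type cells (0.431%, 0.319 to 0.569) and 26 of the knockout cells (0.204%, 0.134 to 0.299), a log2 ratio of −1.08 (−1.82 to −0.36). All cells that passed the limits on Ncr1 and Klrb1c and on the other lineages, ILC1 and NK cells included, were 3.73% and 1.68% of kept cells. Within the sum of ILC1 and NK cells, the ILC1 share was 81.6% (76.4 to 86.1) in the wild type and 83.6% (77.0 to 89.0) in the knockout, and these intervals overlap.

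**Figure D1:**
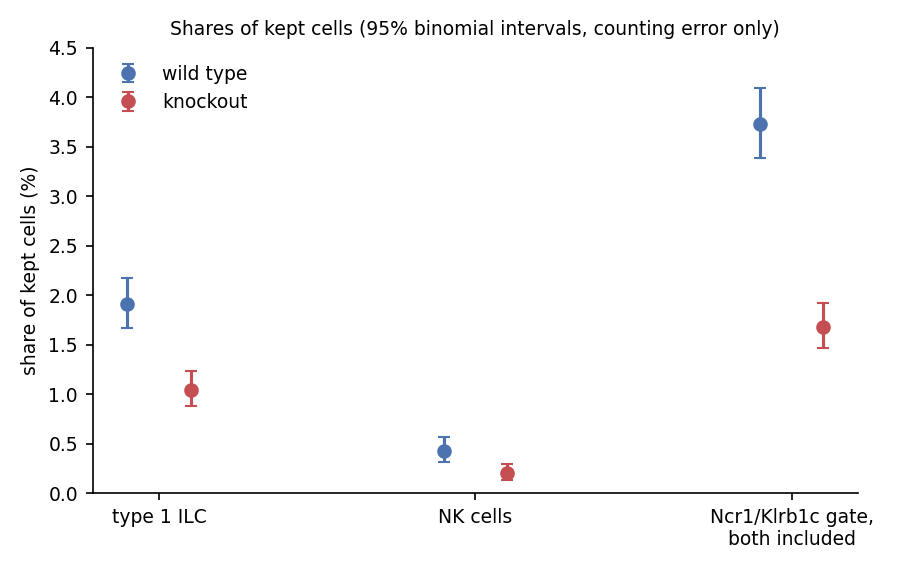
Share of kept cells (%) that were type 1 ILC, NK cells or any cell of the Ncr1/Klrb1c gate, in the wild-type (blue) and knockout (red) library; bars are 95% Clopper-Pearson intervals for counting error only. All 3 shares are lower in the knockout library, with 1.91% against 1.05% for type 1 ILC.

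A share in a cell suspension depends on every other cell in it and on how well each type survives the isolation, and with 1 library per genotype the share of cells per liver and the yield of the isolation cannot be told apart. With up to 20 C1q UMIs allowed, the ILC1 were 300 and 219 and the log2 ratio of shares was −0.62. Asking for no UMI of Trac, Trbc1, Trbc2, Cd4, Cd8a and Cd8b1 left 6 and 16 cells and turned the ratio to 1.25; asking for none of Trac, Cd4, Cd8a and Cd8b1 left 199 and 121 cells and a ratio of −0.88.

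Set against NK cells of the same library, ILC1 held more of 9 identity-list transcripts and less of 12 NK maturation transcripts, by at least 2-fold in both libraries. Of 9096 genes with at least 20 UMIs over the 4 sums, 221 stood at least 2-fold higher in ILC1 in both libraries (2.43%) and 373 at least 2-fold lower (4.1%). With genes at 0 UMIs in a sum set to the bound that 3 counts allow, these were 162 and 371. In the list of ILC1 identity genes outside the rule, 9 of 17 tested stood at least 2-fold higher in both libraries and 0 lower. Its median log2 ratio was 1.37 for the wild type and 1.19 for the knockout, with genes at their bound too, against −0.17 and −0.19 over all genes. The NK cells held 387194 and 191754 UMIs in all, which sets the width of the intervals.

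Granzyme C stood far higher in ILC1. Gzmc, a granzyme gene, had 1060 UMIs in wild-type ILC1 (675 CPM) and 3 UMIs in wild-type NK cells (7.75 CPM), a log2 ratio of 6.03 (4.89 to 8.72). In the knockout it had 546 UMIs in ILC1 (494 CPM) and 0 in NK cells, so it stood at least 31.6-fold higher. Not every ILC1 carried it: 48.8% and 39.1% had a Gzmc UMI, against 3.52% and 1.05% of B cells, and the third quartile was at 4 and 3 UMIs per cell while the richest cells held 48 and 55. Igsf5, a junctional adhesion gene, had 243 UMIs against 2 in the wild type (log2 ratio 4.33, 3.04 to 7.96). In the knockout it had 176 against 0, at least 10.2-fold higher. It had a UMI in 52.1% and 54.1% of ILC1.

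Several regulators of transcription stood higher in ILC1 too. Rora, the nuclear receptor RORα, was at 861 CPM in wild-type ILC1 against 74.9 CPM in NK cells and at 1434 against 203 CPM in the knockout, log2 ratios of 3.47 and 2.78. Ikzf2 (Helios) was at 934 against 129 CPM and at 941 against 57.4 CPM. Nr3c1, the glucocorticoid receptor, was at 1382 against 196 CPM and at 2046 against 412 CPM. Maf also stood at least 2-fold higher in both libraries, and Tbx21 less so, with log2 ratios of 0.64 (0.32 to 1.01) and 0.31 (−0.04 to 0.72). The cell survival gene Bcl2, which is not a regulator of transcription, was at least 2-fold higher in both libraries as well. The phosphoinositide phosphatase Inpp4b was at 908 against 49.1 CPM and at 1044 against 115 CPM, and the kinase Camk4 at 729 against 119 CPM and 970 against 88.7 CPM.

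Several surface genes stood higher in ILC1 as well. Itga1 was at 94.2 against 20.7 CPM in the wild type and at 97.7 against 15.6 CPM in the knockout, with log2 ratios of 2.03 (1.17 to 3.43) and 2.24 (1.06 to 4.94). Tnfsf10 had 122 UMIs against 2 in the wild type (3.34, 2.03 to 6.97) and 109 against 0 in the knockout, at least 6.30-fold higher. Il2ra, the alpha chain of the interleukin-2 receptor, was at 423 against 28.4 CPM and at 254 against 41.7 CPM, and Gpr183, the oxysterol receptor, at 182 against 20.7 CPM and at 262 against 20.9 CPM. Itgav, Il21r, Kit, Ltb, Xcl1, the adhesion receptor Cd226 and the inhibitory receptor Klrb1b each stood at least 2-fold higher in both libraries. The remaining genes that the rule named as highest were the sialyltransferase St6galnac3 (log2 ratios 3.35 and 3.33), Cables1 (2.99 and 4.18, of opposite signs in the libraries under a setting with all cells thinned to 2000 UMIs), the semaphorin Sema6d (4.20 and 2.78), Gm36723 (2.33 and 3.22), Tmem176b (2.28 and 2.90) and the focal adhesion adaptor Lpxn (2.34 and 2.24).

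Cd69, a retention gene often used to mark tissue residency, did not separate the cells in that direction, with 524 against 697 CPM in the wild type and 308 against 527 CPM in the knockout. Il18r1 was at 153 against 181 CPM and at 184 against 261 CPM, and Tcf7 at 48.4 against 95.6 CPM in the wild type but 60.6 against 41.7 CPM in the knockout. Ccl4 stood slightly higher in ILC1 (log2 ratios 0.47 and 0.30) and Ifng lower (−0.44 and −1.11). Prf1, the pore-forming perforin, was at 98.7 against 251 CPM and at 72.4 against 412 CPM.

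On the other side, 12 of the 16 tested NK maturation genes outside the rule stood at least 2-fold lower in ILC1 in both libraries, with medians of −2.46 and −3.28. Gzma (granzyme A) was at 147 CPM in wild-type ILC1 against 3133 CPM in NK cells and at 38.0 against 4094 CPM in the knockout, log2 ratios of −4.41 (−4.62 to −4.21) and −6.72 (−7.24 to −6.30). The Ly49 genes Klra7, Klra9 and Klra3 stood lower with log2 ratios between −2.96 and −6.30. They are members of a family of near-identical copies whose counts are uncertain one by one. The rule used Klra8 and Klra4 of the same family, so these genes among the 12 are not independent of it. The signalling adaptor Sh2d1a stood lower too (−3.79 and −4.79). Irf8 was at 210 against 651 CPM and at 193 against 1095 CPM. Klrg1 had 3 UMIs in wild-type ILC1 against 10 in NK cells and 0 against 23 in the knockout, at least 44.2-fold lower. Cd27, Ly6c2, Cx3cr1 and Zeb2 were not past 2-fold lower in both libraries. Cd27 had log2 ratios of 0.33 (−0.33 to 1.18) and 2.08 (0.74 to 5.72), Ly6c2 of 0.92 and −1.53, Cx3cr1 of −0.02 (−1.25 to 1.93) and 0.15 (−1.07 to 2.39), and Zeb2 of −1.20 and −0.74.

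ILC1 also held fewer transcripts of dividing cells. Of 12 tested cell cycle genes, 11 stood at least 2-fold lower than in NK cells in both libraries. Mki67 was at 28 against 139 CPM in the wild type and at 48.9 against 245 CPM in the knockout, and Top2a, the topoisomerase of dividing cells, was at 40.7 against 225 CPM and at 38.9 against 183 CPM. The linker histone gene Hist1h1b, the Rap GTPase regulator Rap1gap2 and the protease inhibitor Serpine2 were the other named genes that stood lower. In ILC1 the Mki67 UMIs sat in few cells, with a UMI in 7.83% and 13.5% of them and 72.7% and 74.1% of the UMIs in the 5 richest. Of the 49 and 26 NK cells, 26.5% and 26.9% had a Mki67 UMI. For Hist1h1b these shares of NK cells were 16.3% and 26.9%, for Rap1gap2 40.8% and 53.8%, and for Serpine2 8.16% and 19.2%. The contrasts thus rest on a small number of NK cells. The integrin genes Itga4 (−1.37 and −1.70) and Itgb1 (−1.11 and −1.17) and the factors Lef1 (−1.92 and −2.11), Runx2 (−1.30 and −1.48) and Klf2 (−1.09 and −1.0) stood at least 2-fold lower as well.

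**Figure D2:**
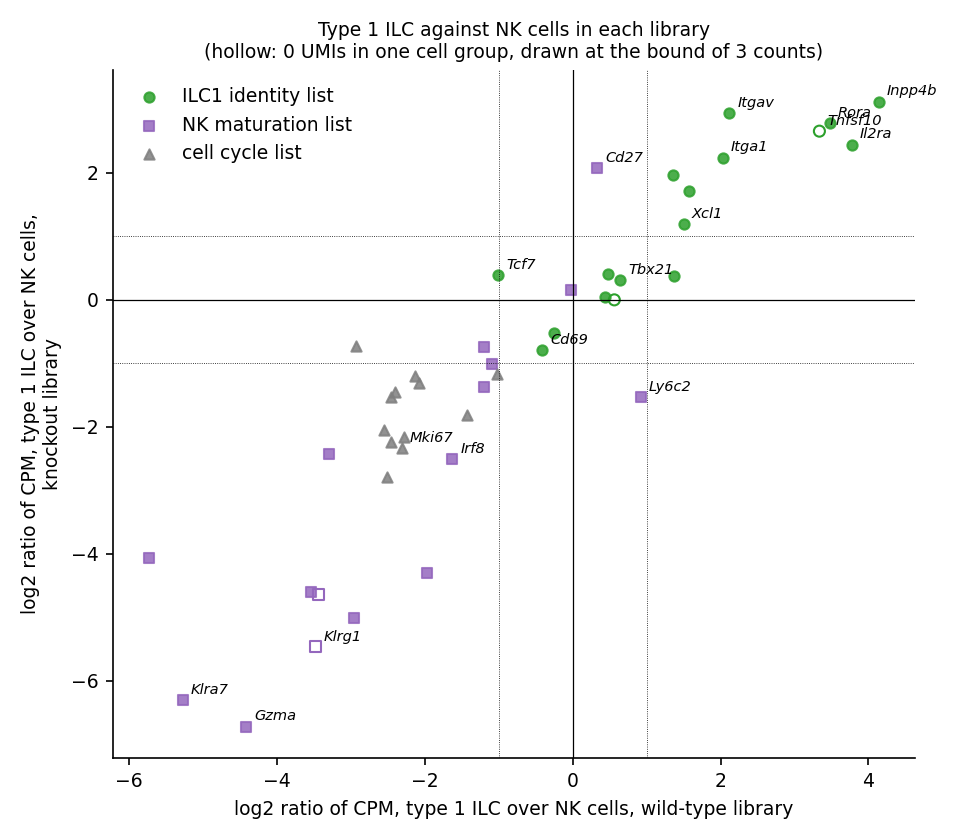
Log2 ratio of summed CPM, type 1 ILC over NK cells, in the wild-type (horizontal axis) and knockout (vertical axis) library for the ILC1 identity (green circles), NK maturation (purple squares) and cell cycle (grey triangles) lists; dotted lines mark 2-fold and hollow symbols are bounds. Most identity genes lie to the upper right, Gzma and Klra7 to the lower left, and Cd69 lies below 0 on both axes.

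Between genotypes the ILC1 were compared on summed UMIs, each scaled to CPM by its own total and with 1 count added. Of 8497 genes with at least 20 UMIs in the ILC1 of both libraries together, 496 stood at least 2-fold higher in the knockout (5.84%) and 162 at least 2-fold lower (1.91%). The counting interval left out 0 for 438 and 123 of them; over all 8497 genes it lay above 0 for 1724 (20.3%) and below 0 for 691 (8.13%). The median gene stood at a log2 ratio of 0.17, so a list is read against that value; scaled by the median of ratios instead, which removes that shift, 310 stood higher and 275 lower. Most of these genes lay on the same side in the rest of the libraries: of the 496 genes 444 also stood higher in the knockout in all other kept cells, and of the 162 genes 138 also stood lower, with medians there of 0.42 and −0.35. The other kept cells are all kept cells that are not ILC1, NK cells included. In their ratios the make-up of this pool and the level per cell cannot be told apart. Many genes of this report lie over another gene of the opposite strand. Among them are Xcl1, Rora, Cd7, Il12rb2, Cxcl10, Rbm3, Abcb1b, Dusp1, Hspa1a, Hspe1, Itga1, Itgav, Ikzf2, Jun and Gm2000. Inpp4b, Camk4, Cables1, Gpr183, Zeb1, Emb and Icam1, named in the other comparisons, do so too. Some, such as Dusp1, Itga1, Ikzf2 and Igtp, overlap a gene of the same strand. How strand was used in counting is not given in the sources used here, so reads of such pairs cannot be told apart.

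Single ratios were least stable under a pair of settings with few cells. Thinning all cells to 2000 UMIs before the rule was applied, the 2000-UMI setting, left 54 and 36 ILC1 and turned the direction of Zbtb16, Tbx21, Serpinb9, Klrc2, Klre1, Kit, Ifi27l2a and Cxcl10. The setting without any T cell receptor, Cd4 or Cd8 UMI, with its 6 and 16 cells, turned that of Cd69, Tbx21, Xcl1, Ltb, Il2ra, Cd226, Tyrobp, Ikzf3, Itga4, Fos, Nfkbia and Hspe1.

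Transcripts of other cell types differed between the libraries too, and their part in the results was not tested. Hepatocyte genes summed to 79.6 CPM in wild-type and 255 CPM in knockout ILC1 (571 and 1060 CPM in the other kept cells), with 5 of 6 tested genes at least 2-fold higher in the knockout; cells ranged from 0 to 1202 and from 0 to 1131 CPM. Erythroid genes went the other way, with 630 and 157 CPM (2573 and 550 CPM in other cells) and 4 of 4 genes at least 2-fold lower. Endothelial genes summed to 75.1 and 171 CPM, macrophage genes to 689 and 566 CPM, neutrophil genes to 1140 and 805 CPM and B cell genes to 917 and 1153 CPM, each below the level in the other kept cells. The mast cell and basophil genes were close to 0, at 0.636 and 0.905 CPM.

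Cytotoxic genes stood lower in knockout ILC1 more often than higher. Of 14 tested, 2 stood at least 2-fold lower and 0 higher, the interval lay below 0 for 7 and above 0 for 2, and the median was −0.23 (−0.60 for the same genes in other kept cells). Gzmb (granzyme B, GRCm38 chr14:56258838-56262260, minus strand) had 1099 UMIs in wild-type ILC1 (700 CPM) and 316 UMIs in knockout ILC1 (286 CPM), a log2 ratio of −1.29 (−1.48 to −1.11). Over 13 alternatives the ratio stayed below 0 but ran from −1.54 to −0.13, so its size depends on the setting. The median wild-type cell held 3 Gzmb UMIs and the median knockout cell 1, with richest cells of 31 and 39, so the cells of the libraries overlap. A Gzmb UMI was in 76.5% and 54.9% of ILC1 and in 3.97% and 2.18% of B cells; thinned to 1000 UMIs the shares were 37.3% and 20.3% against 1.14% and 0.451%.

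In NK cells Gzmb was at 429 and 448 CPM, a log2 ratio of 0.07 (−0.33 to 0.45), so ILC1 stood above NK cells in the wild type (0.70, 0.47 to 0.95) and below them in the knockout (−0.66, −1.0 to −0.29). In all other kept cells together Gzmb was lower in the knockout too, at 74.3 and 20.4 CPM (−1.86, −1.93 to −1.80). That pool includes NK cells and cells that narrowly failed the rule. Cells of the Ncr1 and Klrb1c gate, ILC1 included, were 3.73% of kept wild-type and 1.68% of kept knockout cells. Make-up and level per cell thus cannot be told apart in the pool. Gzma was lower as well, with 231 against 42 UMIs and a log2 ratio of −1.92 (−2.46 to −1.47), but the 5 richest cells held 42.9% and 57.1% of its UMIs, and with up to 20 C1q UMIs allowed the ratio was −0.21. Gzmc was at 675 and 494 CPM (−0.45, −0.60 to −0.30), Prf1 at 98.7 and 72.4 CPM (−0.44, −0.85 to −0.05), and the granule membrane gene Nkg7 at 861 and 586 CPM (−0.55, −0.69 to −0.42). Death ligands did not follow the granzymes: Fasl was at 86.6 CPM in wild-type and 122 CPM in knockout ILC1 (0.50, 0.14 to 0.85), Tnfsf10 had a ratio of 0.35 (−0.04 to 0.73), and Serpinb9, the granzyme B inhibitor, was at 422 and 540 CPM (0.36, 0.19 to 0.52).

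Ifng and the chemokines Ccl3, Ccl4, Ccl5 and Xcl1 stood lower in the knockout. Of 14 tested cytokines and chemokines, 7 lay above 0 and 7 below it, and 6 had an interval below 0 and 2 above it. Ccl5 was at 8176 CPM in wild-type and 5152 CPM in knockout ILC1, Ccl4 at 6600 and 4145 CPM, and Xcl1, which attracts cross-presenting dendritic cells, at 1558 and 985 CPM. Ccl3 was at 1130 and 541 CPM and Ifng at 649 and 406 CPM. The log2 ratios were −0.67 (−0.71 to −0.62) for Ccl5, −0.67 (−0.72 to −0.62) for Ccl4, −0.66 (−0.77 to −0.56) for Xcl1, −1.06 (−1.20 to −0.93) for Ccl3 and −0.67 (−0.84 to −0.51) for Ifng. The median cell went from 54 to 39 UMIs of Ccl5, from 42 to 27 of Ccl4, from 9 to 6 of Xcl1 and from 4 to 2 of Ccl3, and stayed at 2 of Ifng. Across the list the median was −0.09 (−0.26 in other cells), with 1 gene at least 2-fold higher (Tnfsf11, 3 against 20 UMIs, 70.0% of the knockout UMIs in 5 cells) and 1 lower.

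**Figure D3:**
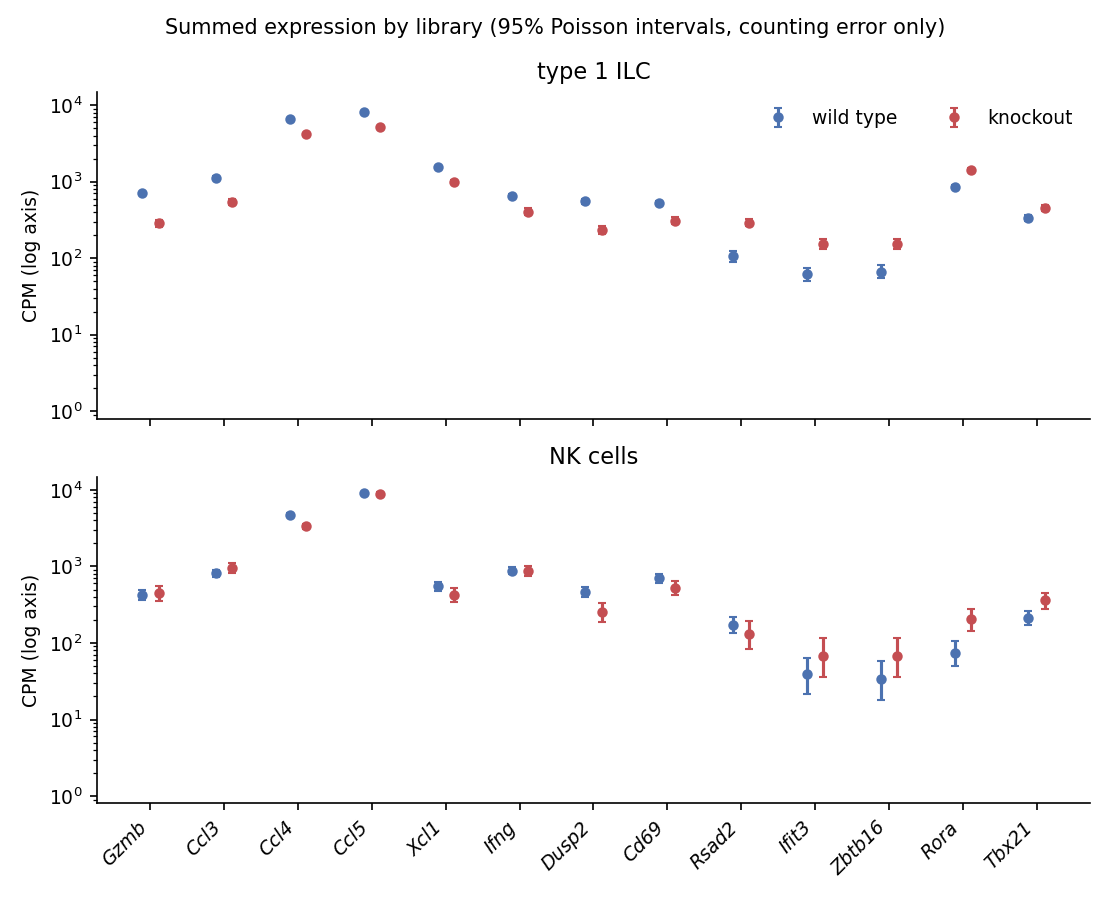
Summed CPM (log axis) of effector, chemokine, interferon-response and transcription factor genes in type 1 ILC (upper panel) and NK cells (lower panel) of the wild-type (blue) and knockout (red) library, with 95% Poisson intervals. In type 1 ILC Gzmb, Ccl3, Ccl4, Ccl5, Xcl1, Ifng, Dusp2 and Cd69 stand lower and Rsad2, Ifit3 and Rora higher in the knockout, while Gzmb and Ccl3 overlap between libraries in NK cells.

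The shares of cells with a UMI followed the levels. Ifng had a UMI in 82.0% of wild-type and 69.2% of knockout ILC1 (4.99% and 5.11% of B cells), or 41.9% and 26.3% after thinning (1.71% and 1.05% of B cells). Ccl3 had a UMI in 80.2% and 70.7% (23.0% and 27.9% of B cells), or 51.2% and 30.8% after thinning (7.51% and 5.94%). Ccl5 had a UMI in all 350 cells. In NK cells Ccl3 was at 816 and 954 CPM (0.23, −0.04 to 0.49), Ccl5 at 9179 and 8918 CPM and Ifng at 878 and 876 CPM. Ccl4 and Xcl1 were lower in knockout NK cells, at 4768 and 3353 CPM and at 548 and 428 CPM. In the pool of other kept cells Ccl5 had a ratio of −0.65 and Ifng of −0.67, close to their ratios in ILC1. Tnf and Tgfb1 differed by less than their counting error, with 0.08 (−0.28 to 0.43) and 0.18 (−0.06 to 0.41). Cxcl10, a chemokine induced by interferon, was at 2914 and 2259 CPM (−0.37, −0.44 to −0.30) and had a UMI in 84.3% and 82.7% of ILC1 against 24.9% and 33.5% of B cells.

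Receptors for the cytokines that drive these cells were mostly close between genotypes. Of 17 tested, 5 had an interval above 0 and 3 below it, with a median of 0.19. Il12rb2 was at 1044 and 1174 CPM (0.17, 0.06 to 0.28), Il2rb, the chain shared by the receptors for interleukin-2 and interleukin-15, at 825 and 886 CPM (0.10, −0.02 to 0.22), and Il18r1 at 153 and 184 CPM. Il2ra stood out, at 423 and 254 CPM (−0.73, −0.94 to −0.53). The 2 receptors at least 2-fold lower, Il12rb1 and Il15ra, rested on 22 against 4 and 20 against 4 UMIs. Ifngr1 was at 858 and 1083 CPM (0.34, 0.22 to 0.45) and Tgfbr2 at 217 and 280 CPM (0.37, 0.14 to 0.59).

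The NK receptor genes were split. Of 20 tested, 6 had an interval above 0 and 8 below it. Klrk1, the gene of NKG2D, was at 512 and 610 CPM (0.25, 0.10 to 0.40) and Klrc2 at 148 and 221 CPM (0.57, 0.31 to 0.84). Of the adaptors that carry receptor signals, Tyrobp (DAP12) stood lower at 885 and 628 CPM (−0.49, −0.63 to −0.36) and Hcst (DAP10) at 423 and 260 CPM (−0.70, −0.91 to −0.50). The adaptor gene Fcer1g was close, at 1148 and 1064 CPM with a median of 8 UMIs per cell in both libraries. Cd7 stood lower at 592 and 374 CPM (−0.66, −0.83 to −0.49). Pdcd1, the gene of PD-1, was the 1 receptor at least 2-fold lower, on 49 against 15 UMIs. In the other kept cells Hcst and Cd7 had ratios of −0.83 and −1.0.

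More transcription factors had an interval above 0 than below it, as did all genes tested. Of 22 tested, 10 had an interval above 0 and 1 (Id2) below it, and the median was 0.32 (0.22 in other cells). Zbtb16 (PLZF), which marks the precursors of innate lymphoid cells, had 105 and 168 UMIs (66.8 and 152 CPM, 1.18, 0.83 to 1.55) and was the 1 factor at least 2-fold higher. It had a UMI in 26.3% and 42.9% of ILC1 and in 2.27% and 3.75% of B cells. Under the 2000-UMI setting its ratio was −0.51. Rora was at 861 and 1434 CPM (0.74, 0.63 to 0.84), with a median of 4 and 10 UMIs per cell and a UMI in 76.5% and 94.7% of cells (13.2% and 23.4% of B cells); thinned to 1000 UMIs the shares were 45.2% and 65.4% against 3.41% and 5.71%. Under the 2000-UMI setting its ratio was 0.12, and in the other kept cells it was 0.61.

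Tbx21 was at 337 and 452 CPM (0.42, 0.24 to 0.60; −0.89 under the 2000-UMI setting), Ikzf3 (Aiolos) at 203 and 357 CPM (0.81, 0.60 to 1.03) and Nfil3 at 52.8 and 96.8 CPM (0.87, 0.45 to 1.31). Ikzf2 did not differ beyond its counting error (0.01, −0.11 to 0.13), and Id2, the inhibitor that marks the innate lymphoid lineage, was at 749 and 633 CPM (−0.24, −0.38 to −0.10). Stat5b, the signal transducer of interleukin-2 family receptors, was at 73.2 and 159 CPM (1.12, 0.77 to 1.47) and was among the genes named by the rule. It had a UMI in 33.2% and 57.9% of ILC1.

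Identity genes outside the rule differed in both directions between genotypes. The 16 tested identity genes had a median of 0.08, with 0 past 2-fold in either direction, 4 intervals above 0 and 6 below it. Itga1 (0.06, −0.32 to 0.42) and Itgav (−0.06, −0.13 to 0.01) differed by less than counting error. Cd69 was lower in the knockout, at 524 and 308 CPM (−0.77, −0.96 to −0.59; −0.02 in other cells). In NK cells it was lower as well (−0.40, −0.75 to −0.07). Among homing genes the retention gene Rgs1 was at 2043 and 1379 CPM (−0.57, −0.66 to −0.48), while 0 of 17 tested were past 2-fold.

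Interferon-response genes stood higher in the knockout more often than lower. Of 25 tested, 7 stood at least 2-fold higher in the knockout and 0 lower, 9 had an interval above 0 and 2 below it, and the median was 0.43, the same as in the other kept cells (0.43).

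Rsad2 (viperin) was at 105 and 290 CPM (1.46, 1.19 to 1.75; 0.49 under the 2000-UMI setting), Ifit3, which has near-identical copies, at 61.1 and 152 CPM (1.31, 0.94 to 1.69) and Ifit1 at 447 and 749 CPM (0.75, 0.60 to 0.89). Igtp and Irgm1, GTPases induced by interferon gamma, were past 2-fold on 14 against 30 and 10 against 19 UMIs. Isg15 went against them at 631 and 503 CPM (−0.33, −0.48 to −0.18), as did Ifi27l2a (−0.43, −0.73 to −0.14). Rsad2 had a UMI in 24.9% and 42.9% of ILC1, its 5 richest knockout cells held 36.1% of its UMIs, and in NK cells its ratio was −0.37 (−1.13 to 0.27).

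Immediate early genes, which cells transcribe within minutes of a stimulus, had a median of −0.21 against 0.09 for the same genes in the other kept cells. Of 20 tested, 12 had an interval below 0 and 5 above it, and 1 was past 2-fold. That gene, Dusp2, a phosphatase of MAP kinases, was at 550 and 235 CPM (−1.22, −1.43 to −1.02), with a median of 3 and 1 UMIs per cell. Dusp2 was also lower in the knockout in NK cells (−0.85, −1.36 to −0.41) and in the other kept cells (−0.67, −0.70 to −0.65). Ier2 was at 557 and 308 CPM (−0.85, −1.04 to −0.67) and Dusp1 at 2527 and 1598 CPM (−0.66, −0.74 to −0.58), while Nr4a2 (0.44, 0.29 to 0.58) and Atf3 (0.32, 0.22 to 0.41) stood higher. Heat shock genes stood higher, with 15 of 17 intervals above 0 and a median of 0.41, below the 0.82 of the other kept cells. Hspa1a, which shares reads with Hspa1b, was at 615 and 1251 CPM (1.02, 0.91 to 1.15), and Bag3 had 57 and 85 UMIs (1.08, 0.58 to 1.59).

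**Figure D4:**
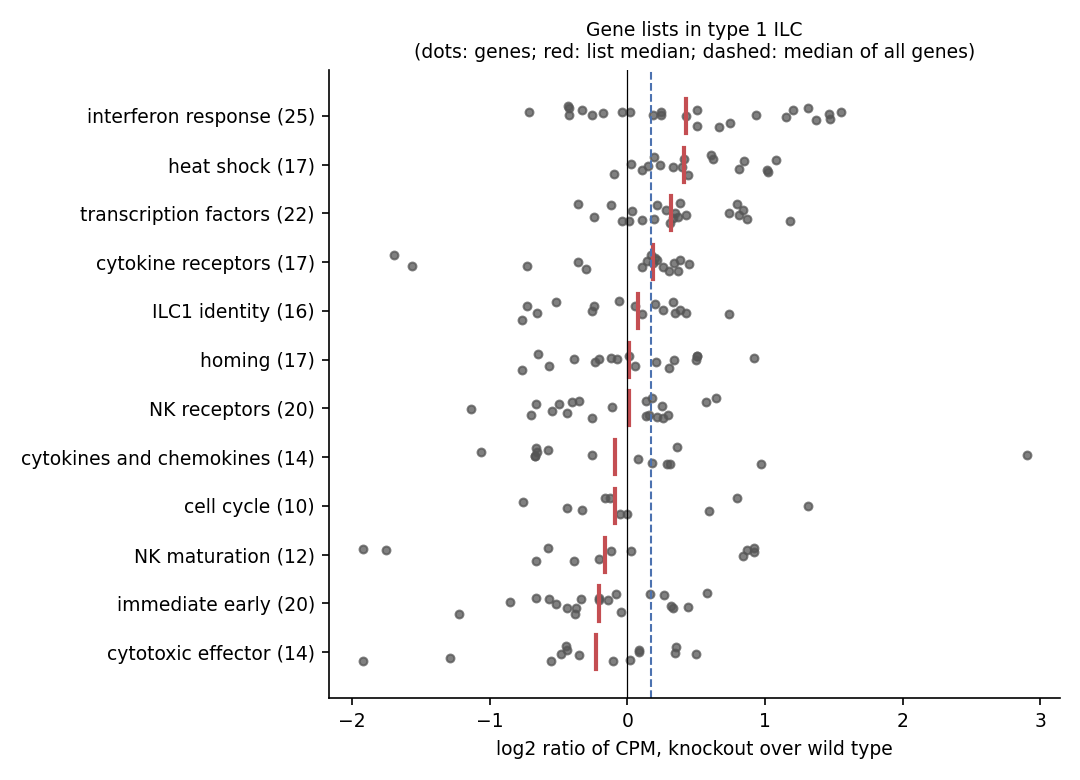
Log2 ratio of summed CPM, knockout over wild type, in type 1 ILC for every tested gene (grey dots) of 12 lists, with the number of genes in brackets, the list median (red) and the median of all genes tested (dashed, 0.17). Cytotoxic effector and immediate early genes have medians of −0.23 and −0.21 and interferon-response genes one of 0.43, and every list spreads on both sides of 0.

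The other genes that the naming rule picked as highest in the knockout served several functions. Eprs, the glutamyl-prolyl-tRNA synthetase, was at 207 and 560 CPM (1.43, 1.24 to 1.63; 0.84 under the 2000-UMI setting) with a UMI in 56.7% and 78.9% of cells. Map3k5, the stress kinase ASK1, had 199 and 358 UMIs (1.35, 1.10 to 1.61), but 52.2% of the knockout UMIs lay in 5 cells and the ratio without the 5 richest cells was 0.64. Abcb1b, a drug efflux pump, likewise had 57.1% in 5 cells, with 1.11 (0.82 to 1.40) and 0.70 without them. Mllt3, a chromatin reader of transcription elongation, was at 170 and 377 CPM (1.15, 0.93 to 1.38), and AW011738 at 70.0 and 164 CPM (1.22, 0.88 to 1.58; 1.27 in other cells).

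Lower in the knockout stood Tsc22d3, a glucocorticoid-induced regulator, at 291 and 138 CPM (−1.06, −1.34 to −0.80; −0.35 under the 2000-UMI setting). The cold-inducible RNA-binding gene Rbm3 was at 715 and 398 CPM (−0.84, −1.01 to −0.68; −0.76 in other cells). The predicted genes Gm10076, Gm2000 and Gm11808 had ratios of −0.92, −0.80 and −0.76. Ratios of the same 3 genes in the other kept cells were −1.11, −0.79 and −0.80.

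Among the ILC1 themselves, cells with and without an Il7r UMI were set side by side within each library. There were 171 cells with and 46 without in the wild type and 108 and 25 in the knockout, at median depths of 6985 and 6541 UMIs and of 7626.5 and 7641 UMIs. Cells without Il7r had to pass on Cxcr6 and Cd200r1 alone, so those genes are not compared. The sets were thus chosen by unlike limits, and the part of this in the other genes was not tested. Of 8497 genes 40 stood at least 2-fold higher with Il7r in both libraries (0.471%) and 82 at least 2-fold lower (0.965%). Whatever the size, 1574 genes (18.5%) stood higher with Il7r in both libraries and 2722 (32%) lower. Of 25 interferon-response genes 1 stood higher and 11 lower in both, 1 of them past 2-fold, and of 22 transcription factors 13 stood higher and 3 lower, with 0 past 2-fold.

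ILC1 with an Il7r UMI held less Ccl3 and Gzmb, while Xcl1 (−0.08 and 0.17) and Gzmc (−0.17 and −0.10) had log2 ratios within counting error. Ccl3 was at 968 CPM with and 1773 CPM without Il7r in the wild type and at 446 and 938 CPM in the knockout, log2 ratios of −0.87 and −1.07. On cells thinned to 1000 UMIs the ratios were −0.96 and −1.47. Gzmb was at 647 against 910 CPM and at 239 against 483 CPM (−0.50 and −1.02; thinned −0.28 and −0.43). The NK receptor gene Klre1 (−0.55 and −0.51) and the proto-oncogene Myc (−0.40 and −0.68) stood lower too, as did Chsy1, a chondroitin sulphate synthase (−0.44 and −0.87), although its thinned knockout value was 0.30.

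Higher with Il7r were the focal adhesion kinase Ptk2b at 581 against 352 CPM and 960 against 511 CPM (0.71 and 0.90), the repressor Zeb1 at 856 against 498 CPM and 1246 against 778 CPM (0.77 and 0.67) and the immunoglobulin family protein Emb (embigin) at 943 against 542 CPM and 1423 against 891 CPM (0.79 and 0.67). Gadd45b (0.60 and 0.75) and the adhesion gene Icam1 (0.71 and 0.58) stood higher as well. These 5 kept their direction in both libraries after thinning to 1000 UMIs. Under the 2000-UMI setting Zeb1, Icam1 and Ccl3 kept theirs in both libraries, Chsy1 turned in both, and the other 6 named genes pointed in opposite directions in the libraries. Gzmb and Ccl3 were lower in the knockout both with Il7r (647 against 239 CPM and 968 against 446 CPM) and without it (910 against 483 CPM and 1773 against 938 CPM).

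**Figure D5:**
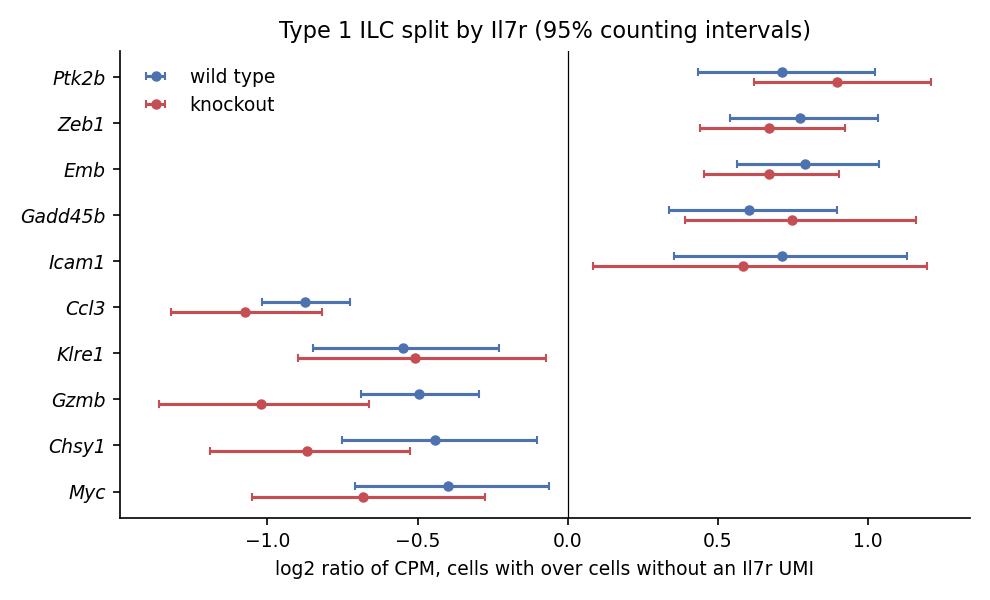
Log2 ratio of summed CPM, type 1 ILC with over without an Il7r UMI, for the 10 named genes in the wild-type (blue) and knockout (red) library, with 95% counting intervals. Ptk2b, Zeb1, Emb, Gadd45b and Icam1 lie to the right of 0 and Ccl3, Klre1, Gzmb, Chsy1 and Myc to the left in both libraries.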

How the data were processed

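Liver non-parenchymal cells of 1 Mfap2+/+ and 1 Mfap2-/- library were analysed. The deposited matrices hold whole-number UMI counts per gene and barcode. They were written by Cell Ranger 7.0.1, per the file headers, while the submitters' processing notes name Cell Ranger 3.1.0, Seurat and mm10; which version made the counts is not settled here, and the authors' own clusters are not used. No values of the files were normalized before deposit, and CPM were computed here from summed counts.

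The members and gene lists were chosen with earlier results of these data known. UMIs were summed over ILC1, NK cells (Ncr1+Klrb1c at least 2, Eomes+Klra8+Klra4 at least 2), B cells (Cd79a+Cd79b+Ms4a1 at least 3) and the other kept cells of a library, since cells are not replicates. The other kept cells are all those that are not ILC1, so they include the NK and B cells. B cells also had to hold 0 UMIs of Ncr1, Klrb1c and the Cd3 genes and at most 5 C1q UMIs. Ratios used 1 added count and genes with at least 20 UMIs over the sums compared. With 1 library per genotype no test, p-value or replicate error is possible, and called means past 2-fold. Intervals (95%) cover counting error only and were tested on simulated data. A fold against 0 UMIs was set against 3 counts over the cell group. Shares of cells with a UMI were repeated after thinning each cell to 1000 UMIs, which left out 0 ILC1 and 2 B cells in each library.

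The named genes are, for knockout against wild type, the 10 highest and 10 lowest ratios among genes with a mean of at least 100 CPM, a UMI in at least 10% of ILC1, at least the CPM of all other kept cells in the library where they are higher, and an interval without 0. For ILC1 against NK cells they are the 15 highest and 10 lowest by the smaller ratio of both libraries with the same direction and at least 100 CPM, and for the Il7r split the 5 highest and 5 lowest with at least 200 CPM. Rule, mitochondrial, ribosomal protein, haemoglobin and immunoglobulin genes were left out, and genes of the lists may be named. Some genes that this rule picks are not reported here.

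No doublet caller was run; doublets were handled by leaving out the deepest cells and cells with over 1% UMIs of other lineages. Gene positions and overlaps came from GENCODE M21 (GRCm38), which held 99.6% of the gene IDs. Python 3.11.15, numpy 2.4.6, scipy 1.17.1, pandas 2.3.3 and matplotlib 3.10.9 were used.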

Additional observations from a re-analysis of the deposited data

Results flagged for a closer look

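For 11 of the 204 genes examined, those of the lists and those named, the knockout over wild-type ratio had opposite signs in ILC1 and in NK cells, with a counting interval without 0 in each. Over all 8497 genes tested this held for 56, or 0.659%. An interval without 0 in both cell types was met by 54 and 569 genes. The difference between the cell types was not tested, since each rests on 1 library per genotype, and the NK cells numbered 49 and 26.

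Both granule genes among them stood lower in knockout ILC1 and higher in knockout NK cells. Gzma had log2 ratios of −1.92 in ILC1 (147 and 38.0 CPM) and 0.39 in NK cells (3133 and 4094 CPM). Prf1 had −0.44 (98.7 and 72.4 CPM) and 0.72 (251 and 412 CPM). The interferon-induced gene Isg15 had −0.33 (631 and 503 CPM) and 0.90 (269 and 501 CPM), which brought both cell types to a similar level in the knockout library.

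Ly6c2, a surface gene of maturing lymphocytes, had −0.58 in ILC1 and 1.87 in NK cells, at 38.7 and 146 CPM on 15 and 28 UMIs. The gut homing integrin gene Itgb7 had −0.65 and 0.92. The immediate early genes gave smaller values, with −0.21 and 0.49 for Fos, −0.14 and 0.30 for Jun, and −0.21 and 0.28 for Nfkbia.

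For 3 genes ILC1 stood higher and NK cells lower in the knockout. Map3k5 had 1.35 in ILC1 and −0.75 in NK cells (261 and 151 CPM), with 52.2% of its knockout ILC1 UMIs in 5 cells. Tgfbr2, a receptor chain for transforming growth factor beta, had 0.37 (217 and 280 CPM) and −0.80 (243 and 136 CPM). The mitochondrial co-chaperone gene Hspe1 had 0.33 and −0.42.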

How the results depend on the processing

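Of the 258 values of shares, counts and list medians under the alternatives, 231 moved by less than their spread or, for counts, by less than 1.5 times, 23 moved further and 4 turned. Of the 231, 15 had the other sign than the reported value, which lay within its own spread of 0: NK receptor medians 6, homing 5, identity 2, NK maturation 1 and the share of ILC1 among ILC1 and NK cells 1. The ILC1 share stayed lower in the knockout under each alternative for the choice of cells except the one without T cell receptor genes, with log2 ratios between −1.01 (marker sums of at least 3) and −0.62 (up to 20 C1q UMIs). The alternatives on C1q, on 1 Cd3 UMI and on Trac, Cd4, Cd8a and Cd8b1 alone were chosen after seeing the data.

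Without UMIs of Trac, Trbc1, Trbc2, Cd4, Cd8a and Cd8b1, which left 6 wild-type and 16 knockout cells, the share ratio was 1.25 and that of ILC1 among ILC1 and NK cells 1.93. Counts past 2-fold were 212 and 82. List medians were −0.73 for cytokines and chemokines, 0.52 for cytokine receptors, −0.18 for transcription factors, 0.036 for immediate early and −0.17 for heat shock genes, and 2.05 for identity genes against NK cells in the knockout. Single ratios that turned were Cd69 0.16, Tbx21 −0.14, Xcl1 0.16, Ltb 0.26, Il2ra 0.49, Cd226 −0.67, Tyrobp 0.31, Ikzf3 −0.44, Itga4 −0.0041, Fos 0.73, Nfkbia 0.57 and Hspe1 −0.51. In the Il7r split Myc was at 0.082, and Zeb1, Emb, Gadd45b, Icam1 and Gzmb were set to 0, the value given where the libraries differed in sign.

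Thinned to 2000 UMIs before the rule (54 and 36 ILC1), 122 genes stood higher and 54 lower, with medians of −0.46 for cytokines and chemokines and −0.54 for immediate early genes, and against NK cells 0.79 for identity genes in the wild type and −2.10 for NK maturation genes in the knockout. Zbtb16 was at −0.51, Tbx21 at −0.89, Serpinb9 at −0.040, Klrc2 at −0.23, Klre1 at 0.19, Kit at −0.021, Ifi27l2a at 0.29 and Cxcl10 at 0.17. Cables1 against NK cells and Ptk2b, Emb, Gadd45b, Klre1, Gzmb and Myc in the Il7r split were set to 0 in the same way, and Chsy1 was at 0.42. The cause was not tested.

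Scaled by the median of ratios, 310 stood higher and 275 lower, and the medians of immediate early and heat shock genes were −0.37 and 0.25. With at least 50 UMIs, 191 stood higher and 50 lower, with −0.62 for cytokines and chemokines; with no filter, 2845 and 931 did, since many more genes of few UMIs entered. NK maturation genes against NK cells were at −1.66 in the wild type with marker sums of at least 3, and at −1.84 in the knockout with up to 20 C1q UMIs.

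No paired analysis was possible because each genotype has 1 library, and for the same reason no replicate was left out. Genes under 20 UMIs in a setting gave no value there. Depth limits the rare genes: 3 counts are 1.91 and 2.71 CPM in ILC1, and 7.75 and 15.6 CPM in NK cells.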

Other observations

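Areg, the gene of the repair factor amphiregulin, had 82 UMIs in wild-type and 106 in knockout ILC1 (52.2 and 95.9 CPM), with a UMI in 9.22% and 18.8% of the cells and 62.2% and 60.4% of the UMIs in the 5 richest. Areg transcripts thus sat in few ILC1. In B cells 1.70% and 2.33% held an Areg UMI. Thinned to 1000 UMIs, the shares were 4.15% and 6.77% of ILC1 against 0.455% and 0.602% of B cells.

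Kit, the stem cell factor receptor, had a UMI in 60.4% and 61.7% of ILC1, against 32.7% and 15.4% of NK cells and 1.25% and 3.45% of B cells. Thinned, these were 18.4% and 19.5% of ILC1 against 0.341% and 0.451% of B cells. The summed level was 234 CPM in wild-type and 280 CPM in knockout ILC1.

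Among 70 wild-type and 28 knockout cells that failed the rule only because they held 0 UMIs of Cxcr6, Il7r and Cd200r1, Gzma was at 1149 and 1012 CPM, against 147 and 38.0 CPM in ILC1 and 3133 and 4094 CPM in NK cells. In the 78 and 22 cells with 1 such UMI it was at 213 and 365 CPM. Their Itga1 levels were 67.6 and 67.1 CPM without such a UMI and 105 and 44.1 CPM with 1.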
